A study of Homo sapiens with 12 samples.

Results

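The Fc gamma receptor genes considered here were FCGR1A, FCGR2A, FCGR2B, FCGR3A, FCGR3B and FCER1G, which are 6 of the 19962 protein-coding genes with a canonical start site in GENCODE release 44 on GRCh38. They were chosen by name, and their chromatin was read from the peaks of dimethylated histone H3 lysine 4 (H3K4me2) in the gene body and within 50 kb of the canonical start site. The study profiled the mark by ChIP-seq in U-937, an established human monocytic line that the labels call AML cells. Cells were given the solvent DMSO, all-trans retinoic acid (ATRA, 0.1 µM), Corin (0.1 µM) or both compounds (0.1 µM each) for 24 h. Corin is an inhibitor that joins lysine demethylase LSD1 and histone deacetylase inhibition in a single molecule and acts on the CoREST complex. There were 8 H3K4me2 libraries, 2 for each treatment, and 4 input libraries, 1 for each treatment, and the peaks were deposited as 1 pooled list per treatment. With 1 list per treatment there was no spread between replicates, no difference below has a replicate check, and no p-value was computed. All libraries came from the same line, so no group stands for a second cell source.

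Fc gamma receptors bind the constant part of IgG and let phagocytes take up, kill or respond to antibody-coated targets. FCGR1A (CD64) is the high-affinity receptor of monocytes and macrophages, FCGR2A (CD32A) and FCGR3A (CD16A) are activating receptors of lower affinity, FCGR3B (CD16B) is a lipid-anchored receptor best known from neutrophils, and FCGR2B (CD32B) is the inhibitory receptor, with an ITIM in its tail. FCER1G encodes the common gamma chain, the ITAM-bearing signalling subunit on which CD64 and CD16A depend. H3K4me2 marks active and poised promoters and enhancers. LSD1 removes it, and retinoic acid drives monocytic and granulocytic differentiation of myeloid leukaemia lines, in which CD64 is a common surface marker.

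The sequences before the starts are shown because the genes are marked so differently there. The first 4 are the 250 bases before each canonical start, 5′ to 3′ on the strand of the gene, taken from the RefSeq promoter table (GRCh38.p14), in which all 6 members were matched. FCER1G lies at chr1:161215045-161215294, FCGR2A at chr1:161505207-161505456, FCGR1A at chr1:149782444-149782693 and FCGR2B at chr1:161662893-161663142, all on the plus strand. Capitals mark CG dinucleotides in FCER1G, and in the others matches on either strand to GAGGAA (the core bound by the myeloid factor PU.1) or TTCNNNGAA (the interferon-gamma activated site).
FCER1G: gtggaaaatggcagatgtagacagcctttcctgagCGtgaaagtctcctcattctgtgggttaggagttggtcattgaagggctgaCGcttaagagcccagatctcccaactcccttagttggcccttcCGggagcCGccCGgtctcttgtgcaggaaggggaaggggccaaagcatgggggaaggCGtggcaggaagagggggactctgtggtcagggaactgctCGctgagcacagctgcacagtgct
FCGR2A: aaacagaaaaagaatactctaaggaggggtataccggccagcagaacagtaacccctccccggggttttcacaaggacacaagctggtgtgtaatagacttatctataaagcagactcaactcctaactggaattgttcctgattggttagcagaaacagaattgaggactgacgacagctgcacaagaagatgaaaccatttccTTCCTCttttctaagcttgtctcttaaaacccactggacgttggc
FCGR1A: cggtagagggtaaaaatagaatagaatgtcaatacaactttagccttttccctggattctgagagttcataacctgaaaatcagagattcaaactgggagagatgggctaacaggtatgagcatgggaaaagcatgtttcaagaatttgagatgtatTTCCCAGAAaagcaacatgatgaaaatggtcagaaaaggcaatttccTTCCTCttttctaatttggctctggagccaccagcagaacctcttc
FCGR2B: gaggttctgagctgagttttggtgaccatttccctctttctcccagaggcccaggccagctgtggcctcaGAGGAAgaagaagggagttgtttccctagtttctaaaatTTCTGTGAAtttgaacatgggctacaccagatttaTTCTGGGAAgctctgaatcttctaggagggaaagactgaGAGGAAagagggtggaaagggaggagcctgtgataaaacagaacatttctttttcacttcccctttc

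In the 300-base promoters of that table, which run from 250 bases before to 50 after the start, GAGGAA occurred in 4 of the 6 members and in 27.9% of all 35116 promoters. It began 46 bases before the start in FCGR1A, 45 before in FCGR2A, and 180 and 67 before in FCGR2B. In FCGR3A it began 6 bases after the start. TTCNNNGAA occurred in FCGR1A, 93 bases before the start, and at 2 places in FCGR2B, against 7.66% of all promoters. The C/EBP motif TTGCNNAA (10.5% of all promoters) and the retinoic acid receptor half-site AGGTCA (13.8%) were not found in these windows of the 6 members. The promoters held few CG dinucleotides: 9 in FCER1G, 4 in FCGR2A and FCGR3B, 2 in FCGR3A and 1 in FCGR1A and FCGR2B, compared with a median of 14 over all promoters. A match is a string of letters and not a measured site.

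FCGR3A and FCGR3B are near-copies, with 234 of the 250 bases before their starts identical (93.6%, 16 mismatches, compared without gaps). The 30 bases around the FCGR3A match to GAGGAA are shown beside the aligned bases of FCGR3B because the copies differ there. The FCGR3A stretch is chr1:161549795-161549824 and the FCGR3B stretch chr1:161631153-161631182, both on the minus strand, with the place of the 6-letter match in capitals.
FCGR3A: aaggctgtttacTTCCTCctgtctagtcgg
FCGR3B: aaggctgtttacTCCCTCctgtctagtcgg
Counted from 1 at the 5′ end of these 30 bases, the only difference was T14C, which lies inside the match, and FCGR3B held no GAGGAA in its promoter window. The 250 bases before the FCGR2B start were found without a mismatch at FCGR2C, a further member of the duplicated cluster. The 500 bases on either side of the FCGR2B start were duplicated throughout (100%), where a base counts as duplicated when the 75-base word starting at it occurs more than once in the genome on either strand. The share was 82.1% around the FCGR1A start, 6.99% around the starts of FCGR3A and FCGR3B, 4.40% around that of FCGR2A and 0.599% around that of FCER1G. How reads with several equal matches were placed is not given in the sources used here, and its part in where peaks were called was not tested.

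**Figure D1:**
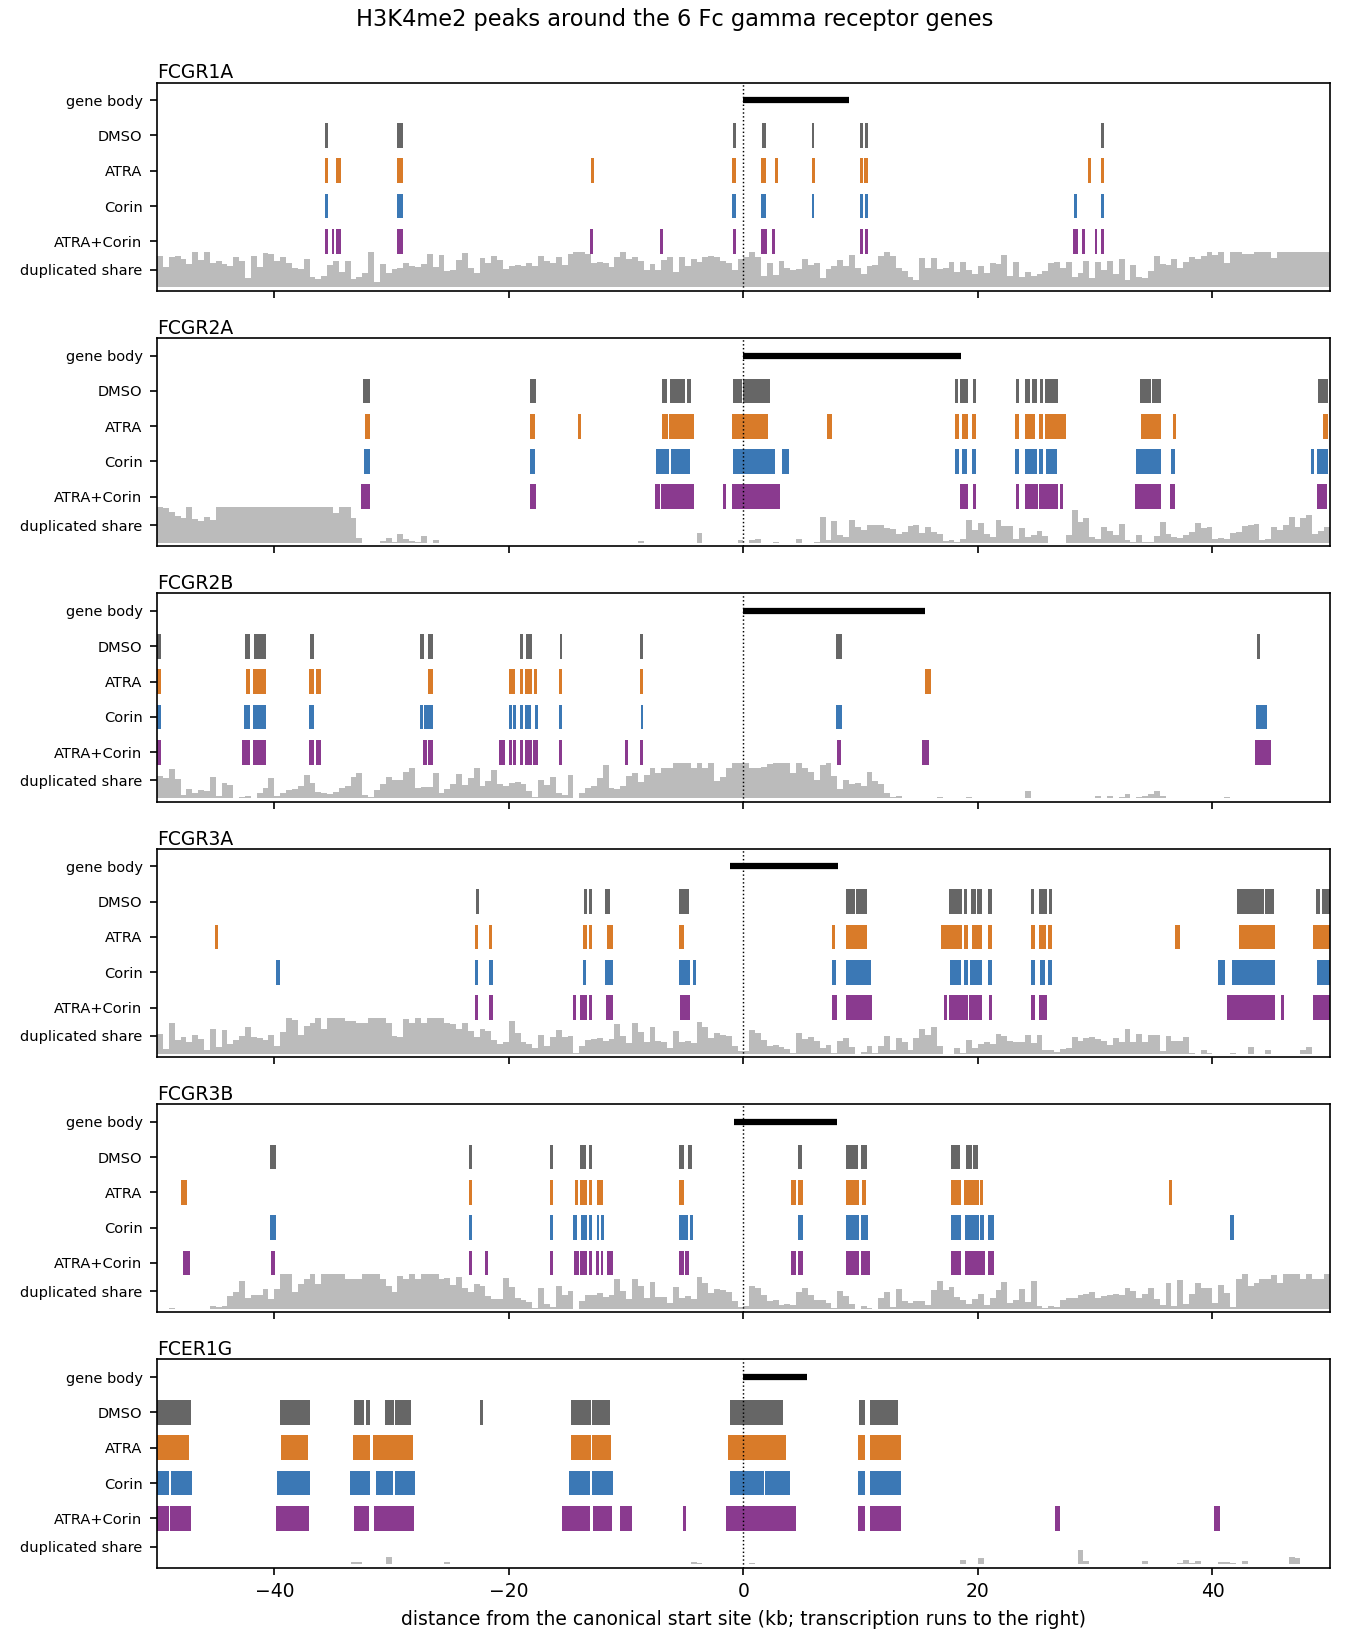
Peaks of the 4 lists around each gene, by distance from the canonical start site in kb, with transcription to the right. The black bar is the gene body and the grey bars give the share of duplicated bases in steps of 500 bases. Peaks lie over the start of FCGR2A and FCER1G in all 4 lists and over no other start.

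The canonical start was under a peak at 2 of the 6 members, FCGR2A and FCER1G, in every list. Over all protein-coding genes the start was under a peak for 47.3% with DMSO, 48.1% with ATRA, 38% with Corin and 38% with ATRA+Corin. Within 1 kb of the start, FCGR1A also had a peak in every list, so 3 of 6 members were marked there, against 61.3% (DMSO), 61.5% (ATRA), 61.5% (Corin) and 62.3% (ATRA+Corin) of all genes. The starts of FCGR2B, FCGR3A and FCGR3B had no peak within 1 kb in any list. U-937 cells were marked as monocytic cells elsewhere: all 7 monocytic markers examined (SPI1, CD33, LYZ, CEBPA, CSF1R, CD14 and CD4) had a peak within 1 kb of the start in each list, except CD14 in the Corin list. CD3E and CD3D (T cell), MS4A1 (B cell), HBB (erythroid), and EPCAM and KRT18 (epithelial) had none there in any list.

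FCGR1A, the high-affinity receptor, had the shortest length under H3K4me2 peaks of the 6 windows in every list. The peak nearest its start ended 673 bases upstream with DMSO, 648 with ATRA, 647 with Corin and 631 with ATRA+Corin, in the region chr1:149781739-149782063. It was a small peak: the fold over input that the authors' caller gave was 5.19 with DMSO, 6.90 with ATRA, 4.69 with Corin and 4.45 with ATRA+Corin. Fragments at its summit, scaled to the depth of the DMSO libraries, were 22 (95% Poisson interval 13.8 to 33.3), 28.5 (19.1 to 41.0), 31.0 (21.5 to 43.3) and 30.9 (21.7 to 42.5) in the same order. All 4 intervals overlapped. The intervals throughout cover counting error only, since fragments from amplified libraries are not independent and replicates were pooled.

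The FCGR1A window held 8 regions in the DMSO list, 12 with ATRA, 9 with Corin and 15 with ATRA+Corin, where a region is a set of peaks from any list that overlap or touch. Covered length was 2352 bp, 3687 bp, 2574 bp and 4161 bp. Of the 18 regions, 7 were in all 4 lists, 5 in the ATRA+Corin list alone, 2 in the ATRA list alone, 2 in the ATRA and ATRA+Corin lists, 1 in the Corin and ATRA+Corin lists, and 1 in every list but ATRA+Corin. That last region, chr1:149788502-149788714, overlaps an exon of FCGR1A. Of the 5 regions in the ATRA+Corin list alone, 3 were at 17.5 scaled fragments and a −log10 q of 4.99, and the highest was at 24.2. The strongest region of the window was chr1:149792960-149793341, 10266 bases downstream of the FCGR1A start, with 110, 90.5, 101 and 128 scaled fragments. It reaches the start of the long non-coding RNA gene ENSG00000233030, which lay under the peak in the ATRA list and not in the 3 others. H2BC18, a histone gene whose body overlaps FCGR1A, and H3C13 and H4C14, 2 further histone genes with starts in the window, had no peak over their starts in any list.

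FCGR2A, the activating receptor CD32A, carried a strong promoter domain in every list. The region chr1:161504445-161508573 covers its start and first exon. Its covered length was 2966 bp with DMSO, 3149 bp with ATRA, 3628 bp with Corin and 4066 bp with ATRA+Corin. The summit fold over input was 36.8, 48.7, 28.05 and 40.1, with a −log10 q of 164, 258, 145 and 219. Scaled summit fragments were 213 (185 to 244), 267 (236 to 300), 180 (156 to 207) and 249 (221 to 279). The ATRA value was the highest and the Corin value the lowest, but each interval overlapped that of DMSO. Height and breadth differed in order, since the domain was wider with Corin than with DMSO and lower at its summit.

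Upstream of FCGR2A, a second domain at chr1:161497907-161501246 ended 4211 bases before the start. It had 47 (34.5 to 62.5), 90.5 (73.0 to 111), 49.2 (37.0 to 64.2) and 72.6 (58.1 to 89.5) scaled fragments in the order DMSO, ATRA, Corin and ATRA+Corin, and covered 2092, 2639, 2797 and 3193 bp. Its ATRA interval lay above that of DMSO and its Corin interval did not. Over the whole FCGR2A window there were 12, 15, 15 and 13 regions, and 12251, 14354, 15390 and 16484 bp under peaks. The ATRA+Corin list thus held fewer regions than either single-drug list and the longest cover. HSPA6, a heat shock gene with its start in the window, was under a peak in all 4 lists.

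FCGR2B, the inhibitory receptor CD32B, had no peak near its canonical start. The nearest peak lay 7932 bases downstream with DMSO, 7897 with Corin and 7988 with ATRA+Corin, in chr1:161671040-161671536 over an exon, and that region had no peak in the ATRA list, whose nearest peak was 8598 bases upstream. Its scaled fragments were 29, 27.3 and 22.5 in the 3 lists that held it. A region over the last exon, chr1:161678368-161679122, was present in the ATRA and ATRA+Corin lists only, with 16.7 and 18.4 scaled fragments. Its −log10 q was 4.05 and 4.99, below the minimum of 5 used as an alternative. The FCGR2B window held 11, 13, 13 and 17 regions and 4606, 5665, 6684 and 8887 bp under peaks, in the order DMSO, ATRA, Corin and ATRA+Corin. At 43584 bases from the FCGR2B start, a region reaching the start of FCRLA, an Fc receptor-like gene of B cells, covered 173 bp with DMSO, 898 bp with Corin and 1404 bp with ATRA+Corin, and had no peak with ATRA. Its scaled fragments were 15, 26.4 and 42.6 in those lists.

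FCGR3A, the activating receptor CD16A, had its nearest peak 4657 bases upstream with DMSO, 5075 with ATRA, 4004 with Corin and 4530 with ATRA+Corin. A region over its last exon, chr1:161541831-161542279, was absent from the DMSO list and present in the 3 others, with 16.7, 27.3 and 20 scaled fragments for ATRA, Corin and ATRA+Corin. Its −log10 q in those lists was 4.05, 6.21 and 5.81, so the ATRA peak was below the minimum of 5 used as an alternative. Just downstream of the gene, the region chr1:161538880-161541070 was in every list. Its scaled fragments were 48 (35.4 to 63.6) with DMSO, 104 (85.4 to 126) with ATRA, 78.4 (62.7 to 96.8) with Corin and 107 (89.1 to 127) with ATRA+Corin. The ATRA and ATRA+Corin intervals lay above that of DMSO, and the Corin interval overlapped it narrowly. The fold over input was 10.1, 24.3, 17.2 and 10.7. The background at the summit that the caller's values imply was 3.28, 2.96, 3.56 and 10.4 fragments, before depth scaling, so the low fold with ATRA+Corin went with a high background. The FCGR3A window held 14, 18, 18 and 17 regions and 11240, 13845, 14577 and 15730 bp under peaks. It shares FCGR2A and HSPA6 with the FCGR2A window, so these counts are not independent of those above.

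FCGR3B, the neutrophil receptor CD16B, held the region with the largest ATRA-to-DMSO ratio among the 40 regions of the 6 windows that were in all 4 lists. This region, chr1:161626088-161626538, overlaps an FCGR3B exon 4638 bases downstream of the start. Its scaled summit fragments were 30 (20.2 to 42.8) with DMSO, 72.8 (57.2 to 91.4) with ATRA, 22.8 (14.7 to 33.6) with Corin and 82.6 (67.1 to 101) with ATRA+Corin. The 2 lists with ATRA were high and the 2 without were low, and no interval of one pair overlapped an interval of the other. The region was picked for its ATRA-to-DMSO ratio, and the intervals do not allow for that choice. Its −log10 q was 11, 49, 8.06 and 57.7. A neighbouring intronic region, chr1:161626702-161627125, showed the same split as presence, with 24.6 and 25.9 scaled fragments in the ATRA and ATRA+Corin lists and no peak in the others. The −log10 q of this intronic region was 4.86 and 4.94, below the minimum of 5 used as an alternative. It lies beside the region picked for its ratio and is not a separate check. A region at HSPA6, chr1:161524979-161525333, came close in its ATRA-to-DMSO ratio. Its scaled fragments were 45 (32.8 to 60.2) with DMSO and 106 (87.2 to 128) with ATRA. With Corin they were 44.7 (33.0 to 59.1) and with ATRA+Corin 61.7 (48.5 to 77.5). The 300 bases around the ATRA summit of the FCGR3B exonic region, chr1:161626243-161626542 on the plus strand of hg38, are shown because its ratio was the largest. Capitals mark a match to AGGTCA, read on the other strand as its complement, and a match to GAGGAA, also on the other strand.
FCGR3B exonic region: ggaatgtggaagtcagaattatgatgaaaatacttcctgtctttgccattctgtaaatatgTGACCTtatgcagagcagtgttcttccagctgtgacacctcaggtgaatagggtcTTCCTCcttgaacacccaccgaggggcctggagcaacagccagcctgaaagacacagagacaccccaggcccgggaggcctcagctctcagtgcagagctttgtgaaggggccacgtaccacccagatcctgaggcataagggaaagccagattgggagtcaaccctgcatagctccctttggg
AGGTCA occurred in 22.3% of the 300-base windows around all 83969 ATRA+Corin summits and GAGGAA in 29.3%, so neither match is rare. The direct repeat of AGGTCA with a 5-base gap was not in this window. Of the bases in the region, 30.8% were duplicated.

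**Figure D2:**
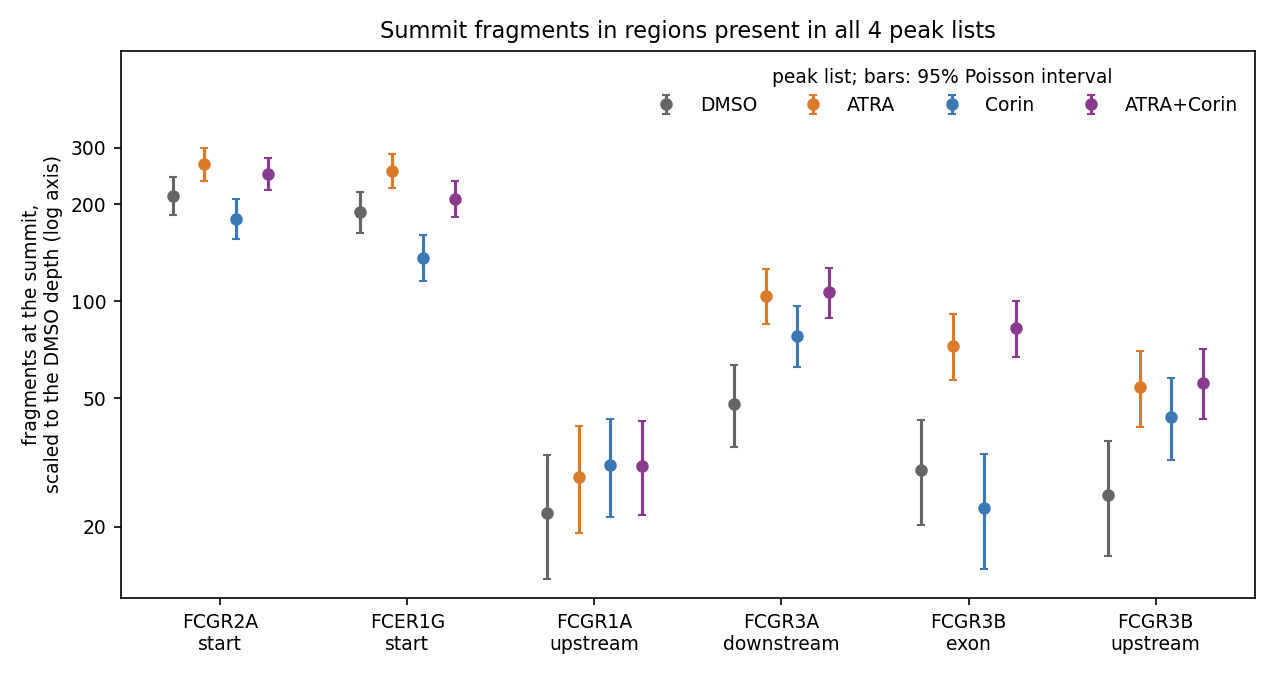
Fragments at the summit in 6 regions present in all 4 lists, scaled to the DMSO depth on a log axis. Each list is read at its own strongest summit in the region. Points are the pooled lists and bars are 95% Poisson intervals, which cover counting error only. The FCGR3B exonic region has 72.8 and 82.6 fragments in the lists with ATRA and 30 and 22.8 in the lists without.

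The peaks of FCGR3A and FCGR3B lay at like distances from their starts. Within 30 kb of each start there were 16 regions at either gene. By distance along the direction of transcription, 9 of the 16 at FCGR3A overlapped 1 or more at FCGR3B, and 10 of the 16 at FCGR3B overlapped 1 or more at FCGR3A, in 11 pairs. Of these pairs, 7 had the same presence in the 4 lists, and in all 7 both regions were in every list. In each of the remaining pairs a region was missing from a list, and presence differed between the genes. Like presence was thus not seen where it depended on the treatment, and some regions belong to several pairs. An upstream pair ended 13342 bases before the FCGR3A start and 13318 bases before the FCGR3B start. The FCGR3A copy had 17 (9.90 to 27.2), 33.5 (23.2 to 46.7), 20.1 (12.6 to 30.4) and 43.4 (32.4 to 56.9) scaled fragments (DMSO, ATRA, Corin, ATRA+Corin). The FCGR3B copy had 25 (16.2 to 36.9), 54.1 (40.8 to 70.4), 43.8 (32.3 to 58.0) and 55.9 (43.3 to 71.0). The ATRA+Corin interval lay above that of DMSO at both genes, and the ATRA interval did at FCGR3B and overlapped it at FCGR3A. The shares of duplicated bases in the pair were 9.63% and 13.0%, and whether reads of one copy were placed on the other was not tested. The FCGR3B exonic region described above had no counterpart at FCGR3A, and neither did the FCGR3A last-exon region at FCGR3B. The peak nearest the FCGR3B start lay 4411 bases upstream with DMSO, 4051 downstream with ATRA, 4368 upstream with Corin and 4083 downstream with ATRA+Corin. The FCGR3B window as a whole held 11, 15, 15 and 18 regions and 5899, 7921, 8611 and 10255 bp under peaks.

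**Figure D3:**
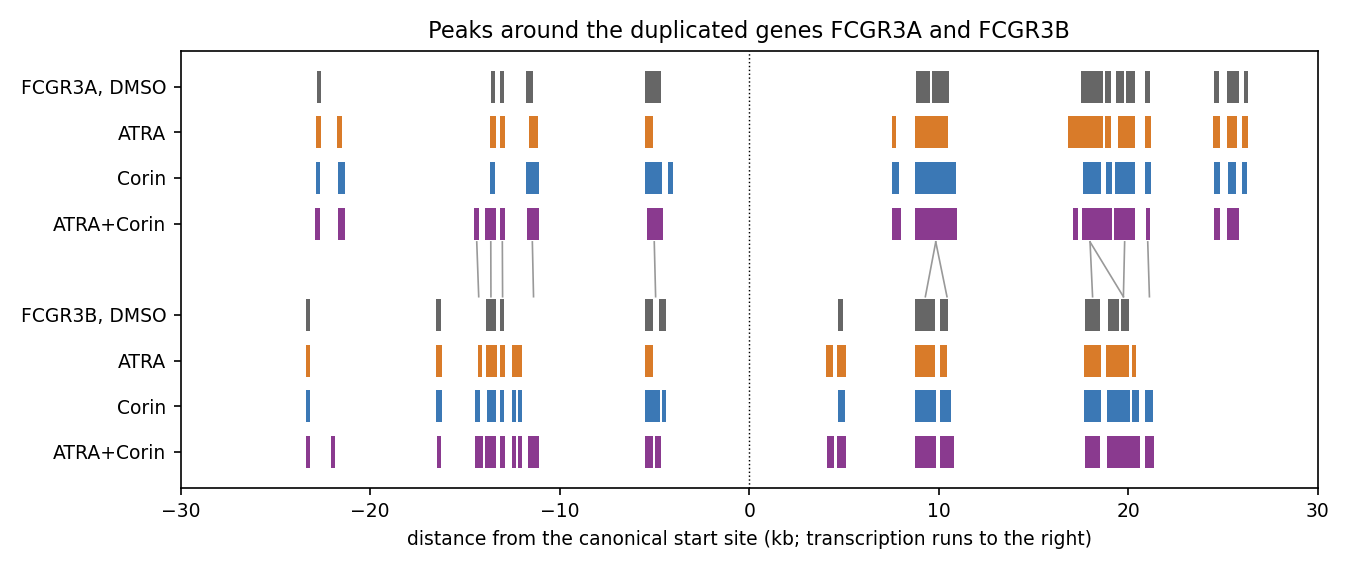
Peaks of the 4 lists within 30 kb of the starts of FCGR3A (upper rows) and FCGR3B (lower rows), by distance in kb in the direction of transcription. Grey lines join the 11 pairs of regions that overlap by distance; the FCGR3B exonic region about 5 kb downstream has none.

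FCER1G, the signalling gamma chain, had the longest length under H3K4me2 peaks of the 6 windows in every list and almost no duplicated sequence (1.28% of the window, compared with 68.2% for FCGR1A). Its start lay in the region chr1:161213799-161219774, which covered 4483 bp with DMSO, 4992 bp with ATRA, 5005 bp with Corin and 5976 bp with ATRA+Corin, of which 3442, 3710, 3902 and 4541 bp lay in the gene body. Scaled summit fragments were 189 (163 to 218), 255 (225 to 288), 137 (116 to 160) and 209 (184 to 236). The ATRA interval lay above that of DMSO, the Corin interval lay below it, and the ATRA+Corin interval overlapped it. The summit lay at a different place in each list, with ATRA+Corin at chr1:161218000, 2705 bases downstream of the start. The Corin list held 2 peaks in the region. These values therefore compare the strongest summit of each list and not the same site. The fold was 32.7, 55.7, 24.9 and 20.7, so the combination was lowest by fold, while by scaled fragments it lay below ATRA and above DMSO and Corin. The background at the summit that the caller's values imply was 4.19, 3.22, 4.58 and 10.4 fragments, before depth scaling.

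The FCER1G window is dense with other genes. Of its 9 regions in all 4 lists, 8 had more scaled summit fragments than DMSO with ATRA, 3 with Corin and 5 with ATRA+Corin. In the region chr1:161181736-161183444, Corin was highest (61.1, interval 47.3 to 77.6) and ATRA lowest (39.4, 28.1 to 53.6). DMSO had 49 (36.3 to 64.8) and ATRA+Corin 40 (29.5 to 53.1) there. These 4 intervals all overlapped, so the order lay within counting error. The starts in the FCER1G window include those of PPOX, B4GALT3, ADAMTS4, APOA2, TOMM40L, NR1I3 and PCP4L1. The region at TOMM40L, chr1:161226053-161228736, had 265 (234 to 299), 332 (297 to 369), 173 (149 to 200) and 249 (222 to 279) scaled fragments. The region at B4GALT3, chr1:161175446-161178375, had 185 (159 to 214), 295 (263 to 331), 132 (112 to 156) and 186 (162 to 212). All 4 Corin intervals below DMSO among the 40 shared regions of the 6 members were in this window. By presence, the window held 10, 9, 9 and 13 regions, with 9 of 14 in all 4 lists, 4 in the ATRA+Corin list alone and 1 in the DMSO list alone. Covered length was 19520, 21499, 22341 and 25777 bp.

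**Figure D4:**
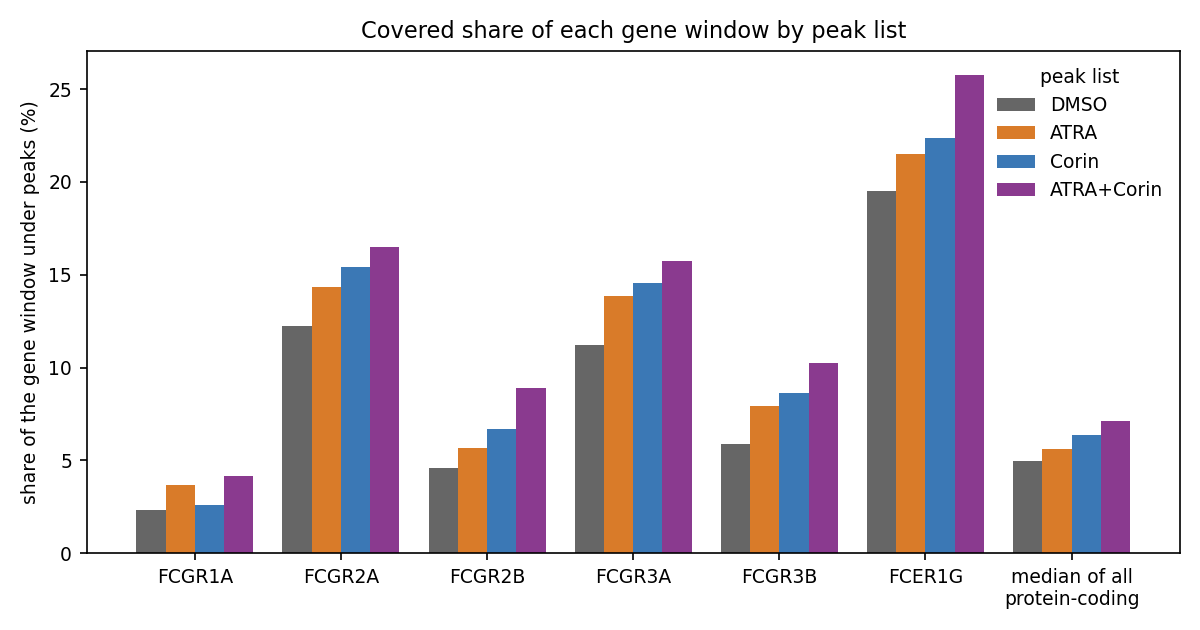
Share of each gene window under peaks, in percent, in the 4 lists, with the median over all protein-coding genes at the right. Bars are single pooled lists and have no error bar. In each of the 6 windows the ATRA+Corin bar is the tallest and the DMSO bar the shortest.

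Across the 6 members, the windows together held 77 distinct regions. The DMSO list had 46 of them, the ATRA list 56, the Corin list 53 and the ATRA+Corin list 66, and 40 were in all 4. Because the windows of FCGR2A, FCGR3A, FCGR3B and FCGR2B overlap, their 45 regions were counted once. Relative to DMSO, 13 regions were gained and 3 lost with ATRA, 9 gained and 2 lost with Corin, and 23 gained and 3 lost with ATRA+Corin. Relative to ATRA, the combination gained 17 and lost 7, and relative to Corin it gained 18 and lost 5. The 3 contrasts with DMSO share the DMSO list, and the last 2 share the combination list.

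By gene, at least 1 region was gained with ATRA in 5 of 6 members (42% of all genes), with Corin in 5 of 6 (54% of all genes) and with ATRA+Corin in 6 of 6 (67.8% of all genes). At least 1 region was lost in 3 of 6 members with ATRA (24.8% of all genes), 2 of 6 with Corin (25.8%) and 4 of 6 with ATRA+Corin (20.3%). Gains exceeded losses in 5, 5 and 6 members, against 33.6%, 45.1% and 62.2% of all genes. The balance of gained less lost regions (ATRA, Corin and ATRA+Corin against DMSO) was 4, 1 and 7 for FCGR1A, 3, 3 and 1 for FCGR2A, 2, 2 and 6 for FCGR2B, 4, 4 and 3 for FCGR3A, and 4, 4 and 7 for FCGR3B. For FCER1G it was -1, -1 and 3. The median over the members was 3.5, 2.5 and 4.5, compared with 0, 0 and 1 over all genes. The members were read from windows with more regions than usual: 8 to 14 with DMSO, against a median of 4 over all genes, and 4 of the 6 share the cluster.

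Against the single drugs, the combination gained at least 1 region in 6 of 6 members relative to ATRA (63.2% of all genes) and in 6 of 6 relative to Corin (59% of all genes). It lost at least 1 in 4 of 6 relative to ATRA (21.6% of all genes) and in 4 of 6 relative to Corin (28.7%). Gains exceeded losses in 4 of 6 members in each of these comparisons (56.9% and 49.7% of all genes). The exceptions were FCGR2A and FCGR3A, with balances of -2 and -1 in each comparison.

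Covered length was longer than with DMSO in 6 of 6 members in each drug list, and longest with ATRA+Corin in 6 of 6. These counts stand beside 69.2% (ATRA), 80.3% (Corin) and 83.7% (ATRA+Corin) of all genes that were longer than with DMSO, and 65.5% of all genes that were longest with ATRA+Corin. The median ratio to DMSO over the members was 1.23 with ATRA, 1.28 with Corin and 1.57 with ATRA+Corin, compared with 1.09, 1.23 and 1.36 over the 17463 genes with a DMSO peak in the window. With ATRA+Corin the ratio was 1.93 for FCGR2B, 1.77 for FCGR1A, 1.74 for FCGR3B, 1.40 for FCGR3A, 1.35 for FCGR2A and 1.32 for FCER1G. The 3 members with the shortest cover in DMSO had the 3 largest ratios. That cover is the denominator of the ratio, so this order is not a separate result. The gain in length followed the direction of the genome as a whole, and with 1 list per treatment whether the members exceeded it could not be tested.

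Summit height followed another order than length. In the 40 regions present in all 4 lists, the median ratio of scaled summit fragments to DMSO was 1.31 with ATRA, 0.867 with Corin and 1.12 with ATRA+Corin, and 35, 15 and 25 of the 40 were above DMSO. Over all 43264 such regions the medians were 1.29, 0.912 and 1.16, with 87.1%, 38.3% and 67.0% above DMSO, so the members lay close to the genome. The summit interval lay above that of DMSO in 11 of the 40 with ATRA (19.3% of all such regions), 0 with Corin (2.32%) and 5 with ATRA+Corin (14.1%). It lay below in 4 with Corin (15.8%), in 0 with ATRA (0.252%) and in 0 with ATRA+Corin (4.75%). Of the 11 with ATRA, 6 were in the FCGR2 and FCGR3 cluster, 5 in the FCER1G window and 0 in the FCGR1A window. All 5 with ATRA+Corin were in the cluster.

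**Figure D5:**
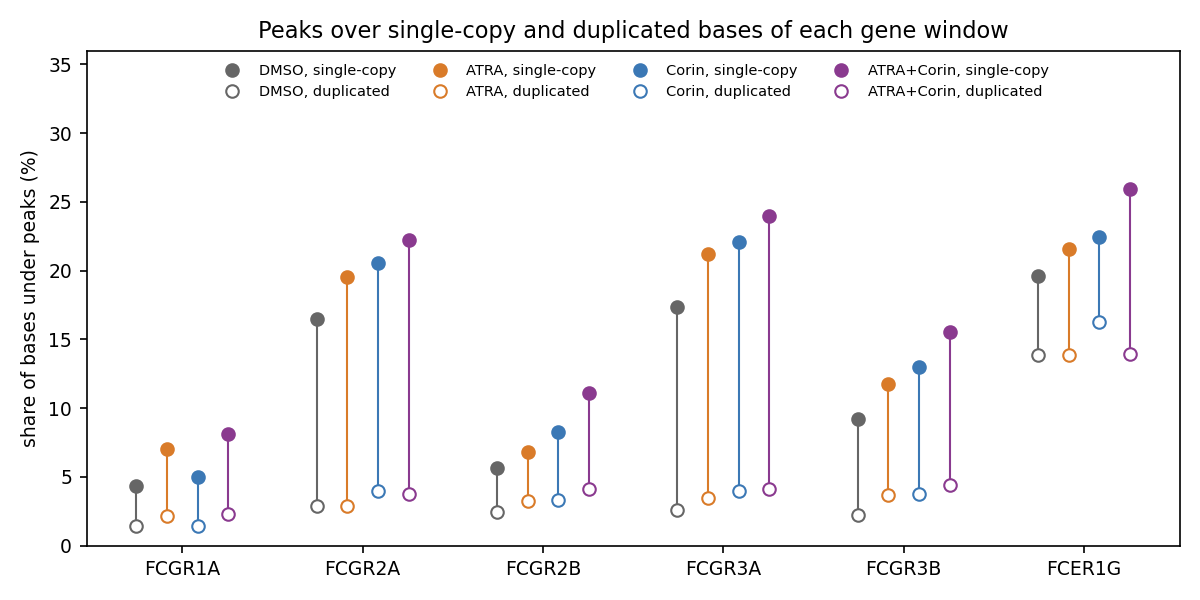
Share of single-copy bases (filled) and duplicated bases (open) of each gene window under peaks, in percent, in the 4 lists. At each gene and in each list the filled point lies above the open one; at FCGR1A they are 4.32% and 1.44% with DMSO.

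Duplicated sequence set the 5 receptor genes apart from FCER1G. The duplicated share of the window was 68.2% for FCGR1A, 47.4% for FCGR3B, 41.4% for FCGR3A, 32.0% for FCGR2B, 31.2% for FCGR2A and 1.28% for FCER1G. The median was 1.16% over the 21 genes of the Fc receptor pathway list below. The highest share in that list was 43.9%, at FCGR2C of the same cluster. Peaks covered single-copy bases more than duplicated ones in every window and list. In the FCGR2A window 16.5% of single-copy bases and 2.92% of duplicated bases were under DMSO peaks, and with ATRA+Corin 22.3% and 3.75%. In the FCGR1A window the shares were 4.32% and 1.44% with DMSO, and 8.13% and 2.31% with ATRA+Corin. The ATRA+Corin share was above the DMSO share in both classes of base in each of the 6 windows. The median peak in the FCGR1A window was 260.5 bp wide with DMSO and 236 bp with ATRA+Corin, against 1440 bp and 1517 bp in the FCER1G window. The absence of a peak at the starts of FCGR1A and FCGR2B therefore cannot be told apart from the absence of placed reads. At FCGR3A and FCGR3B most bases around the start were single-copy, but this count takes exact repeats only. FCGR3A and FCGR3B are near-copies before their starts. Whether the absence of a peak at these starts reflects an absence of placed reads was therefore not tested.

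The wider Fc receptor pathway was read from 21 genes: 7 other Fc receptors, 12 genes grouped as kinases and adaptors, and 2 phosphatases that act on ITIM signalling. The group of 12 is a loose one, since it also holds the zeta chain CD247 and the phospholipase PLCG2. With ATRA+Corin against DMSO, gains exceeded losses in 18 of the 21, losses exceeded gains in 0, and the median balance was 4, compared with 62.2% up and a median of 1 over all genes. It was 12 up and 3 down with ATRA (33.6% of all genes up) and 18 up and 1 down with Corin (45.1% up), with a median of 1 in each and of 0 over all genes. In the group of kinases and adaptors 11 of 12 genes were up with ATRA+Corin, with a median balance of 6. The balances are counts over windows that grow with the gene. The largest were 11 at LYN, the Src-family kinase that phosphorylates ITAMs and ITIMs, and 10 at LCP2, the adaptor SLP-76. They were followed by 7 at FGR, a myeloid Src-family kinase, at PLCG2, the phospholipase downstream of SYK, and at CD247, the zeta chain that can pair with CD16A. Their windows were 184335 bp (LYN), 101545 bp (LCP2), 100001 bp (FGR), 233395 bp (PLCG2) and 143503 bp (CD247) long, compared with 100001 bp for each of the 6 receptor genes. SYK, the kinase that docks on the phosphorylated gamma chain, went from 12 regions with DMSO to 11 with ATRA, 13 with Corin and 18 with ATRA+Corin. Of the other Fc receptors 5 of 7 were up, with a median of 2. They include FCGR2C, with a balance of 5, whose window overlaps those of FCGR2A, FCGR3A, FCGR3B and FCGR2B. Its regions were already counted with the members, so its balance is not independent of theirs. FCER1A, the ligand-binding chain of the mast cell IgE receptor, had 0 regions in every list. Both phosphatases were up, INPP5D by 2 and PTPN6 by 1. The pathway genes had their start under a peak in 17, 17, 15 and 14 of 21 cases, in the order DMSO, ATRA, Corin and ATRA+Corin, compared with 2 of 6 for the receptor genes in every list. Over all genes the shares in that order were 47.3%, 48.1%, 38% and 38%. The pathway count was thus lower in the lists with Corin, as it was over all genes. It asks only whether the exact start base is covered. The starts covered with DMSO and not with Corin were TRIM21 and INPP5D, with peaks 73 and 27 bases away. With ATRA+Corin they were SYK, LYN and BTK, with peaks 102, 43 and 9 bases away. Within 1 kb of the start the shares of all genes were 61.3%, 61.5%, 61.5% and 62.3%.

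By the covered share of the 100 kb around the start over the 4 lists, the pathway genes most like the members were TRIM21 (a cytosolic antibody receptor) for FCGR1A, FCAR (the IgA receptor) for FCGR2B, FCMR (the IgM receptor) for FCGR3B, INPP5D (the phosphatase SHIP1) for FCGR2A and FCGR3A, and FCGRT (the neonatal Fc receptor) for FCER1G. The summed absolute differences over the 4 lists were 4.17, 3.27, 1.56, 5.17, 8.25 and 3.82 percentage points in that order. Candidates that share a window with the member were left out.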

How the data were processed

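H3K4me2 ChIP-seq was done in 12 U-937 libraries; per the submitters' processing notes, Trimmomatic, Bowtie2, Picard and MACS2 were used with hg38, with no versions given. The authors deposited 1 pooled peak list per treatment. Per peak, the deposited score is a capped whole-number form of 10 times −log10 p, the fold (a ratio over input) and the −log10 p and −log10 q come from the authors' caller at the summit, and the last value is the summit offset. The lists held 65172 (DMSO), 66385 (ATRA), 73997 (Corin) and 83969 (ATRA+Corin) peaks on 23 chromosomes, with a lowest −log10 p of 2.02 to 2.05, and 0 peaks passed a chromosome end of hg38. Groups came from the sample titles.

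Touching or overlapping peaks of the 4 lists formed 84577 regions. Gained and lost mean present in one list and not the other. Fragments at each summit were recovered from fold and −log10 p (100% of peaks solved within 0.001 in −log10 p). In a region each list was read at the summit of its strongest peak, so the place can differ between lists. The H3K4me2 depth was inferred from the lowest background that the caller's values imply, and not from read counts. Relative to DMSO it was 1.02 (ATRA), 1.10 (Corin) and 1.20 (ATRA+Corin), and summit fragments were divided by it. Median summit fragments were 39, 47, 40 and 45. Intervals are exact 95% Poisson intervals. Duplicated bases start a 75-base word that occurs more than once in hg38. Regions, depth recovery and the word search were tested on simulated data. Promoters came from RefSeq. Python 3.11.15, numpy 2.4.6, pandas 2.3.3, scipy 1.17.1 and pysam 0.24.0 were used.

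All 6 members were named. Neighbours were the protein-coding genes with a start in a window. Pathway genes were named for the 3 largest balances with ties, every net loss with ATRA+Corin, and likeness to a member. SYK, BTK, FCGR2C, FCER1A and PTPN6 were named after their values were seen. Regions were described where they lay over or next to a member or stood apart. Members and lists were chosen with earlier results of these data known. Protein sequences were not used here. Of the cell type markers 2, and of the neighbouring genes 1, are not reported here. Alternatives were a −log10 q minimum of 5, equal peak numbers, windows of 10 and 100 kb, single peaks with 50% overlap, and equal depth with a recomputed −log10 p minimum of 5.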

Additional observations from a re-analysis of the deposited data

How the results depend on the processing

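Over 6 alternatives, 41 of 60 counts of gained or lost regions in the 6 windows stayed within 1.5 times the main count, and gains exceeded losses in each of the 5 comparisons under each alternative. With a −log10 q minimum of 5, 1 region was lost with ATRA and 4 with Corin, the combination gained 9 and lost 4 relative to ATRA, and it gained 11 relative to Corin. At equal depth with a recomputed −log10 p of 5 or more, which also raises the threshold, 5 regions were lost with Corin and 3 with the combination relative to ATRA. With 65172 peaks in each list, 5 regions were gained with Corin and 4 lost with the combination relative to ATRA. With single peaks, 5 were lost with ATRA and 14 gained with Corin. With windows of 10 kb, 5 were gained and 1 lost with ATRA, 3 gained and 0 lost with Corin, 9 gained with the combination, 7 gained and 4 lost with it relative to ATRA, and 8 gained relative to Corin; these windows hold less sequence. The cause of the other moves was not tested.

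No paired analysis was possible because each treatment has 1 pooled peak list, and leaving out a replicate could not be done for the same reason. The gains with ATRA+Corin rest partly on peaks near the caller's limit, and read placement in duplicated sequence was not tested. The inferred H3K4me2 depth was highest with ATRA+Corin.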
